A study of Mus musculus with 8 samples.

Results

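The 8 genes described here are Ch25h, which makes an oxysterol from cholesterol, and 7 genes that make, sense or export cholesterol: Hmgcs1, Sqle, Idi1, Insig1, Srebf2, Abca1 and Abcg1. They were taken by symbol from the deposited normalized table and joined by Ensembl identifier to the count table of 55536 genes. All 8 passed the filter on low counts and are among the 15998 genes tested. RNA was sequenced from tumors that the mouse hepatocellular carcinoma (HCC) line HCA-1 formed after implantation into the liver of male C3H mice, which the labels describe as 6 to 8 weeks old. On day 17, 4 mice received PFSUV-IMQ intravenously at 4 mg per kg (labelled IMQNP, replicates 1, 2, 3 and 4) and 4 received saline (labelled Control, replicates 1, 3, 4 and 5), and the tumors were taken 3 h later. PFSUV-IMQ carries imiquimod (IMQ), an agonist of the RNA-sensing receptor TLR7, in vesicles made of cholesterol and Tween80. No group received empty vesicles, so the effects of imiquimod and of the vesicle with its cholesterol cannot be told apart in these tumors. The study's methods give a younger age for the mice than the labels do.

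Cells make cholesterol from acetyl-CoA by the mevalonate pathway. When sterol in the membrane of the endoplasmic reticulum is low, the transcription factor SREBP2, encoded by Srebf2, is escorted by Scap to the Golgi, cut and sent to the nucleus, where it switches on the genes of synthesis and uptake. Cholesterol and oxysterols hold Scap and SREBP2 back through the anchor proteins Insig1 and Insig2, and oxysterols also activate the nuclear receptors LXR, which raise the exporters Abca1 and Abcg1. Ch25h is known as a gene that interferon and Toll-like receptor signals induce in macrophages and dendritic cells, and its product blocks SREBP2 processing. In the liver most of this pathway runs in hepatocytes.

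Promoter windows from RefSeq on GRCm38.p6 were found for 6 of the 8 genes, and 3 of them are shown. They were chosen because they belong to Ch25h and Insig1, whose groups of tumors did not overlap, and to Hmgcs1, an early enzyme of the pathway. Each line gives the bases before the first annotated start of the gene on its own strand, with matches to the sterol response element (SRE, TCACNCCAC) and to the CCAAT box (CCAAT, or ATTGG on the opposite strand) in capitals.
Ch25h (chr19:34475165-34475398, minus strand): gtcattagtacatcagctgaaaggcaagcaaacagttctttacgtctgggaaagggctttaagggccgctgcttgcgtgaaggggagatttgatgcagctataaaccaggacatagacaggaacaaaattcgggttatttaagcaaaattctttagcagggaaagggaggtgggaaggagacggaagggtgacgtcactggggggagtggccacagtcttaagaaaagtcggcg
Hmgcs1 (chr13:119690101-119690350, plus strand): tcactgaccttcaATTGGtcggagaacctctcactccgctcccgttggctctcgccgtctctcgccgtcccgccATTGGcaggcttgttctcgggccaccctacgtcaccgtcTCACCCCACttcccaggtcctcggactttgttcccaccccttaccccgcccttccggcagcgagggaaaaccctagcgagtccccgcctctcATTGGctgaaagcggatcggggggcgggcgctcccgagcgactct
Insig1 (chr5:28071162-28071362, plus strand): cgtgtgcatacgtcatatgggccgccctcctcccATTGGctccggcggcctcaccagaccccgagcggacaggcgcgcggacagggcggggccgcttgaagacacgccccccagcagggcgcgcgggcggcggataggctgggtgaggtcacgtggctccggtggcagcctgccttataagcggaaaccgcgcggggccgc

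The SRE letters occurred in the Hmgcs1 window, 137 to 129 bases before the RefSeq start, and in no other of the 6 windows of 250 bases searched on both strands. Of all 32851 promoter windows of this length, 1.05% held the SRE letters and 33.8% a CCAAT box. Hmgcs1 held 3 CCAAT boxes and Insig1 held 1, all in the opposite orientation. The interferon-response core GAAANNGAA, found in 7.13% of all windows, was in none of the 6 windows, and the GC box GGGCGG, found in 32.7%, was in all but that of Ch25h. These matches are of letters in a short window.

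Ch25h was the only one of the 8 genes called at an adjusted p under 0.05, and it was higher after PFSUV-IMQ. Insig1, the anchor that holds SREBP2 back and is itself a target of SREBP2, had a mean after PFSUV-IMQ that was 0.381 times the saline mean, with no overlap between the groups, but its adjusted p was 0.0796. The enzymes Hmgcs1, Idi1 and Sqle had lower means after PFSUV-IMQ without passing the test, and for Srebf2, Abca1 and Abcg1 the groups overlapped, with slightly higher means after PFSUV-IMQ. Across all tested genes, 2.46% were called higher and 0.219% were called lower (quasi-likelihood test of edgeR, p adjusted by Benjamini-Hochberg), the shares beside which the 1 call among these 8 genes is to be read. The bulk of a tumor was sequenced, so a change in the number of cells that express a gene and a change in RNA per cell cannot be told apart.

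**Figure D1:**
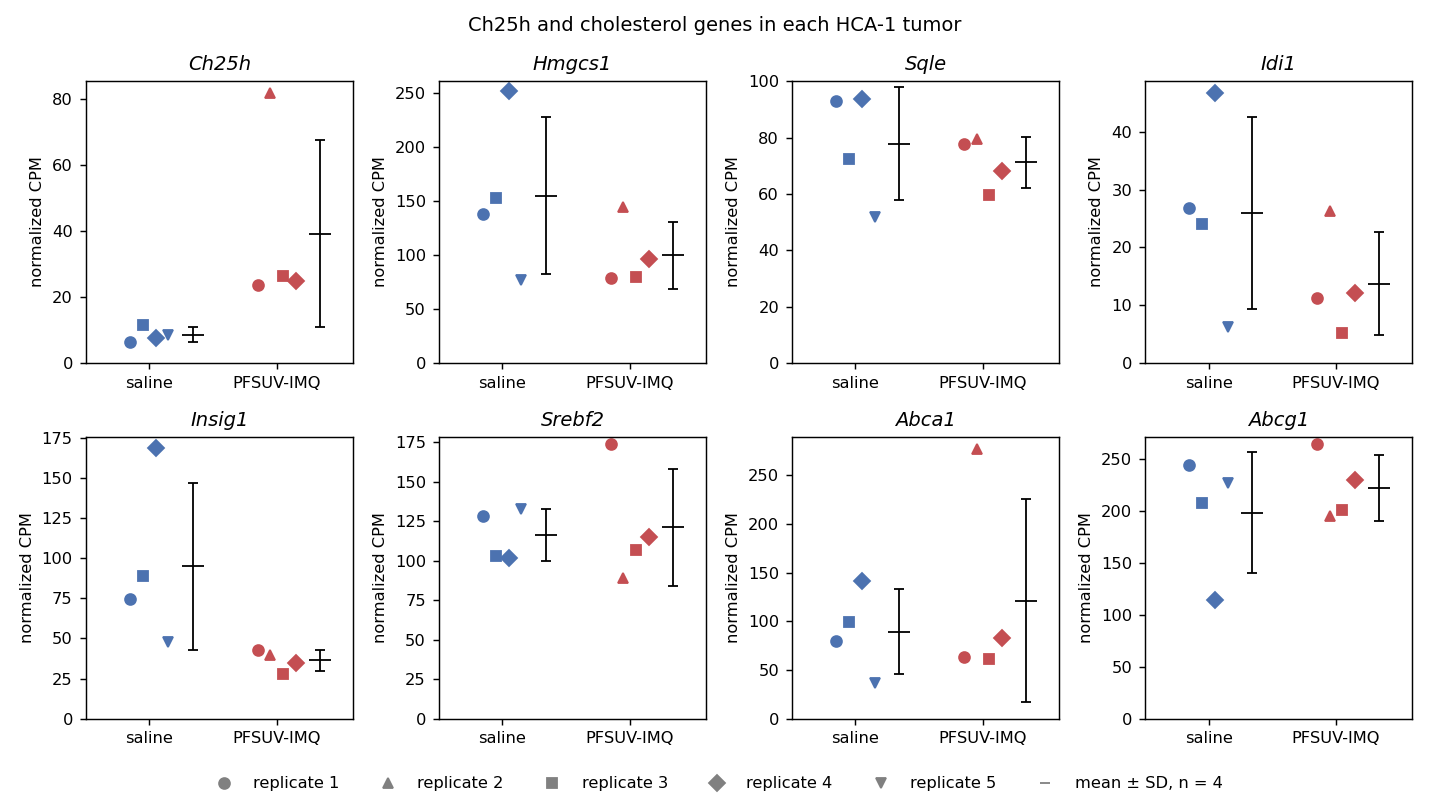
Normalized CPM (vertical axis from 0) of the 8 genes in each tumor, with saline tumors in blue, PFSUV-IMQ tumors in red, marker shapes giving the replicate number and black bars the mean ± SD of 4 tumors. The PFSUV-IMQ tumors lie above all saline tumors for Ch25h and below all of them for Insig1, and the groups overlap in the other 6 genes.

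Ch25h (ENSMUSG00000050370, chromosome 19, 34473778 to 34475164) is a gene of a single exon. Its level was 6.41, 11.6, 7.52 and 8.63 CPM (counts relative to the TMM-scaled library size) in saline replicates 1, 3, 4 and 5, and 23.6, 81.6, 26.5 and 24.8 CPM in PFSUV-IMQ replicates 1, 2, 3 and 4. No PFSUV-IMQ tumor was as low as the highest saline tumor, which was also so in 6.00% of all tested genes, and PFSUV-IMQ replicate 2 stood far above the other 3. The means were 8.54 ± 2.23 and 39.1 ± 28.3 CPM (SD over 4 tumors each). On the log2 scale the fitted difference was 2.19 (standard error 0.43, 95% confidence interval 1.22 to 3.17, adjusted p = 0.0298 from edgeR). By size of increase Ch25h ranked at place 218 of the 15998 tested genes. Without PFSUV-IMQ replicate 2 the log2 fold change was 1.53 (adjusted p = 0.00718), so that tumor carried part of the size and not the call. Leaving out any 1 saline tumor kept the log2 fold change between 2.08 and 2.38 but raised the adjusted p to 0.0668 to 0.106. The lncRNA Gm26902 starts within the gene on the other strand and shares 8.22% of the 50-base words of the Ch25h transcript, at 0.331 to 1.75 CPM.

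Summed markers of macrophages and Kupffer cells, cells in which Ch25h can be induced, ranged from 1053 to 1530 CPM under saline and from 823 to 1550 CPM under PFSUV-IMQ, and none of those 11 genes was called by edgeR. With an unadjusted p under 0.05, 2 of them were lower, beside 4.65% of all tested genes. Of these 2, Clec4f, a marker of Kupffer cells, was called lower by DESeq2, which called 176 genes lower in all. Markers of dendritic cells summed to 27.0 to 60.8 CPM under saline and 23.3 to 39.7 CPM under PFSUV-IMQ, with 3 of 6 lower at an unadjusted p under 0.05 and Flt3 called lower by DESeq2. Neutrophil markers summed to 5.93 to 45.9 and 25.3 to 119 CPM. PFSUV-IMQ replicate 2, the tumor with the most Ch25h, had the highest sum of its group for macrophage, dendritic cell and neutrophil markers alike. Among saline tumors, replicate 3 had the most Ch25h and a neutrophil sum of 8.36 CPM, and replicate 5 had the highest neutrophil sum. Of the 5 neutrophil markers tested, 2 were higher and 0 lower at an unadjusted p under 0.05 (8.34% and 4.65% of all tested genes). Their median log2 fold change was 1.17, and none was called by edgeR or DESeq2. None of these lists had a marker at 3 or fewer counts in every tumor, and the part of these cells in the Ch25h result was not tested.

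The 5 genes whose log2 CPM followed Ch25h most closely over the 8 tumors, among 14660 genes ranked, were Cd40, a costimulatory receptor of antigen-presenting cells (Pearson r = 0.992), Psmb10, a catalytic subunit of the immunoproteasome (0.992), Socs1, a feedback inhibitor of cytokine signaling (0.990), Dusp28 (0.988) and Il1rn, the antagonist of the interleukin-1 receptor (0.986). Each of them was called higher, with log2 fold changes of 2.75, 1.37, 2.74, 1.79 and 1.66. The 8 points share the treatment contrast and the high value in PFSUV-IMQ replicate 2, so these coefficients are descriptions.

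Insig1 (ENSMUSG00000045294, chromosome 5, 28071363 to 28078662) had 74.4, 88.9, 169 and 47.9 CPM in saline replicates 1, 3, 4 and 5, and 42.5, 39.5, 28.0 and 34.8 CPM in PFSUV-IMQ replicates 1 to 4. Every PFSUV-IMQ tumor lay below every saline tumor, as in 3.28% of all tested genes, although saline replicate 5 came close to PFSUV-IMQ replicate 1. Saline tumors differed by up to 3.52 times among themselves and PFSUV-IMQ tumors by 1.51 times. The means of 95.02 ± 52.0 and 36.2 ± 6.30 CPM (SD over 4 tumors each) gave a fitted log2 difference of -1.39 (standard error 0.35, 95% confidence interval -2.17 to -0.61, unadjusted p = 0.00277 and adjusted p = 0.0796 from edgeR). The call depended on the test: the adjusted p was 0.00629 with the Wald test of DESeq2, 0.0153 without a filter on low counts and 0.0300 without saline replicate 5, and it rose to 0.119 without saline replicate 4 and 0.194 without PFSUV-IMQ replicate 3. Without saline replicate 4 the log2 fold change was -0.96.

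Srebf2 (ENSMUSG00000022463, chromosome 15, 82147181 to 82205379), which encodes SREBP2 itself, had 128, 103, 102 and 133 CPM under saline and 174, 88.9, 106 and 115 CPM under PFSUV-IMQ, in the same order of replicates. The highest and the lowest of the 8 values were both in the PFSUV-IMQ group. The log2 fold change was 0.06 (standard error 0.22, interval -0.44 to 0.56, adjusted p = 0.958), and its sign turned with upper-quartile normalization and without saline replicate 3, saline replicate 4 or PFSUV-IMQ replicate 1. In a list of 11 genes that control SREBP, which holds Insig1 and Srebf2, none was called by edgeR and Insig1 alone by DESeq2, while with edgeR 1 was higher and 2 were lower at an unadjusted p under 0.05 (8.34% and 4.65% of all tested genes), and the median log2 fold change was -0.10, beside -0.03 over all tested genes. The lower 2 were Insig1 and Srebf1, which encodes the paralog SREBP1 and had means of 86.2 ± 38.3 CPM under saline and 53.6 ± 13.5 CPM under PFSUV-IMQ (log2 fold change -0.69, standard error 0.30, adjusted p = 0.371, and -0.33 without saline replicate 4). The higher gene was Rnf139, a ubiquitin ligase of the endoplasmic reticulum, with 30.9 ± 5.78 and 48.9 ± 11.8 CPM (log2 fold change 0.66, standard error 0.22, adjusted p = 0.210). Scap had a log2 fold change of -0.26, and -0.096 without saline replicate 4.

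Hmgcs1 (ENSMUSG00000093930, chromosome 13, 119690379 to 119708260) makes HMG-CoA, the substrate of the reductase that statins block. It had 138, 153, 252 and 77.2 CPM in the saline tumors and 78.4, 145, 80.1 and 96.1 CPM in the PFSUV-IMQ tumors. Saline replicate 5 was lowest of all, below every PFSUV-IMQ tumor, and PFSUV-IMQ replicate 2 lay among the saline values. The log2 fold change was -0.64 (standard error 0.34, interval -1.41 to 0.14, adjusted p = 0.512 from edgeR). The antisense gene Gm48342, which had at most 4 counts in any tumor, shares 13.6% of the 50-base words of the Hmgcs1 transcript.

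Idi1 (ENSMUSG00000058258, chromosome 13, 8885501 to 8892451) interconverts the isoprenoid building blocks and was the most variable of the 8 genes within the saline group. Its values were 26.8, 24.0, 46.7 and 6.19 CPM under saline, a 7.54-fold range, and 11.3, 26.3, 5.19 and 12.1 CPM under PFSUV-IMQ, a 5.07-fold range. The log2 fold change of -0.92 had a standard error of 0.59 and an interval from -2.26 to 0.41 (adjusted p = 0.606), so both 0 and a decrease beyond 2 on the log2 scale lay inside it. Other annotated genes share 30.5% of its 50-base words, mostly pseudogenes with at most 6 counts in any tumor.

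Sqle (ENSMUSG00000022351, chromosome 15, 59315077 to 59331192) oxidizes squalene, the step before the sterol rings are closed. It had 93.2, 72.6, 93.9 and 52.0 CPM under saline and 77.6, 79.4, 59.8 and 68.1 CPM under PFSUV-IMQ, with the PFSUV-IMQ values inside the saline range. Its log2 fold change was -0.13 (standard error 0.21, interval -0.60 to 0.34, adjusted p = 0.876), the narrowest interval of the 8 genes.

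The 3 enzymes are members of a list of 20 genes of cholesterol synthesis, all of which were tested. None was called in either direction by edgeR's quasi-likelihood test or by the Wald test of DESeq2. With edgeR, 1 was lower at an unadjusted p under 0.05 and none was higher (4.65% and 8.34% of all tested genes). In 19 of the 20 the fitted change was below 0, against 54.0% of all tested genes, and the median log2 fold change was -0.36. Tm7sf2, a sterol reductase, was the exception at 0.07. Saline replicate 4 carried much of this: without it 13 of the 20 were below 0 and the median was -0.10, with Hmgcs1 at -0.30, Idi1 at -0.48 and Sqle at -0.03. Without PFSUV-IMQ replicate 2 all 20 were below 0 and the median was -0.66. The genes of a pathway vary together, so the 20 signs are not 20 separate observations. After Idi1, the largest differences were in Hsd17b7, a sterol ketoreductase (21.5 ± 11.5 CPM under saline and 12.2 ± 4.52 CPM under PFSUV-IMQ, log2 fold change -0.82), Mvk, mevalonate kinase (13.5 ± 4.79 and 8.49 ± 2.90 CPM, -0.67), and Lss, lanosterol synthase (34.04 ± 10.9 and 21.7 ± 4.65 CPM, -0.65, adjusted p = 0.297).

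**Figure D2:**
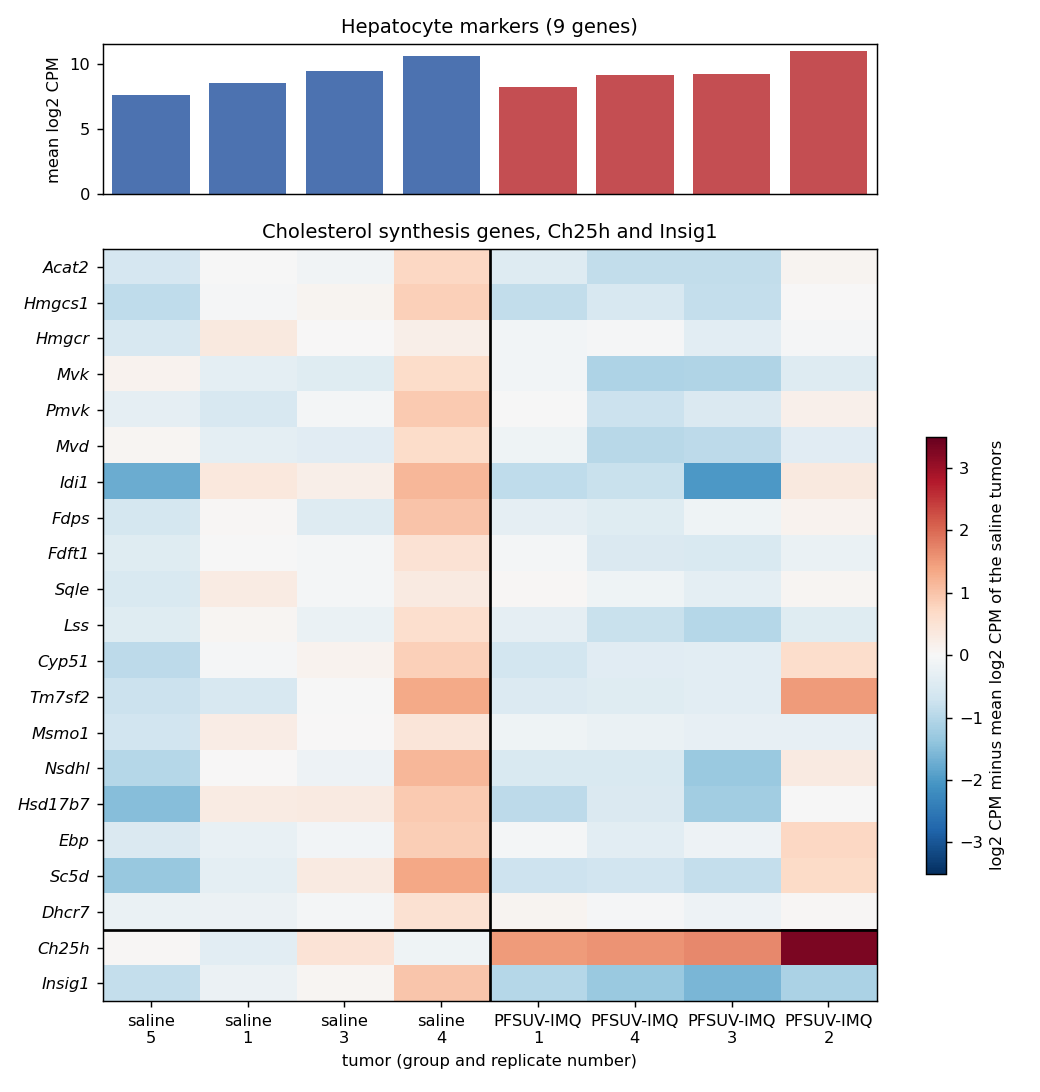
Top, mean log2 CPM of 9 hepatocyte markers in each tumor (bars from 0, blue saline, red PFSUV-IMQ), with tumors ordered by that value within each group. Bottom, log2 CPM of the synthesis genes reported here, in pathway order, and of Ch25h and Insig1, as the difference from the mean of the 4 saline tumors. Saline replicate 4 and PFSUV-IMQ replicate 2 have the most hepatocyte marker RNA and, for most synthesis genes, the highest value of their groups, while Insig1 is below the saline mean in all 4 PFSUV-IMQ tumors.

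The spread between saline tumors in the synthesis genes moved with hepatocyte markers, and that between PFSUV-IMQ tumors did so for only part of the genes. The 9 markers, among them Alb and Apoa1, summed to 4724 to 35798 CPM in the saline tumors and 7164 to 38579 CPM in the PFSUV-IMQ tumors, highest in saline replicate 4 and PFSUV-IMQ replicate 2 and lowest in saline replicate 5. Saline replicate 4 was the highest saline tumor for 19 of the 20 synthesis genes, saline replicate 5 was the lowest for 17, and PFSUV-IMQ replicate 2 was the highest PFSUV-IMQ tumor for 12. Others, among them Mvk and Lss, were highest in PFSUV-IMQ replicate 1, whose hepatocyte markers summed to 7164 CPM, the lowest of that group. With the mean log2 CPM of these markers as a covariate, an alternative chosen after seeing the data, Hmgcs1 had a log2 fold change of -0.73 (adjusted p = 0.0162) and was the 1 synthesis gene called lower. In the same fit Insig1 had -1.36 (adjusted p = 0.00668) and Ch25h 1.86 (adjusted p = 0.00659), both called. These calls are to be read beside the 755 genes called higher and 456 called lower by that fit among all 15998 tested. The reported fit called 394 higher and 35 lower. Without saline replicate 4 and PFSUV-IMQ replicate 2, no synthesis gene was called, and the log2 fold changes were 1.46 for Ch25h (adjusted p = 0.0198) and -1.03 for Insig1 (adjusted p = 0.118). The 6 hepatocellular tumor markers summed to 42.2 to 87.7 CPM under saline and 51.1 to 78.1 CPM under PFSUV-IMQ. They differed in level: Igf2 had 3 or fewer counts in every tumor and Afp was at 6.08 CPM or less. Cdh1 had 26.0 to 68.3 CPM under saline and 31.8 to 63.9 CPM under PFSUV-IMQ.

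The 5 genes closest to the mean profile of Hmgcs1, Sqle and Idi1 over the 8 tumors were Cpt1a, which carries fatty acids into mitochondria (r = 0.981), Pgap1 (0.980), Fech, the last enzyme of heme synthesis (0.978), Hsd17b7 (0.978) and Galnt11 (0.977). None of these was called, and their log2 fold changes were -0.22, -0.55, -0.51, -0.82 and -0.23. These tumors share the differences in hepatocyte marker RNA given above.

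Uptake and transport held no call in the reported fit. Of 13 genes tested, none passed the adjusted threshold with edgeR or DESeq2, and 1 was lower at an unadjusted p under 0.05 (4.65% of all tested genes). Fitted changes were below 0 in 11, beside 54.0% of all tested genes, and the median log2 fold change was -0.12. Without saline replicate 4, 8 of the 13 were below 0. Stard4, a sterol carrier, had 41.1, 43.4, 65.7 and 18.0 CPM under saline and 17.4, 31.6, 16.3 and 17.6 CPM under PFSUV-IMQ (log2 fold change -1.02, standard error 0.37, adjusted p = 0.262). It was called lower by edgeR with the hepatocyte covariate (-1.12, adjusted p = 0.00460) and with a block for replicate number (-1.52, adjusted p = 0.0117). Gramd1b, which moves cholesterol from the plasma membrane to the endoplasmic reticulum, stood at -0.42 on the same scale, with an adjusted p of 0.464.

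Abca1 (ENSMUSG00000015243, chromosome 4, 53030787 to 53159895) loads cholesterol onto apolipoprotein A1. It had 79.3, 99.0, 142 and 36.5 CPM in the saline tumors and 63.0, 277, 61.2 and 83.0 CPM in the PFSUV-IMQ tumors. The mean was higher after PFSUV-IMQ only through replicate 2, which held over 3 times the level of any other tumor of its group. The log2 fold change of 0.44 (standard error 0.55, interval -0.80 to 1.68, adjusted p = 0.827) became -0.39 without that tumor.

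Abcg1 (ENSMUSG00000024030, chromosome 17, 31057675 to 31117988) passes cholesterol to high-density lipoprotein and is abundant in macrophages. It had 244, 208, 114 and 227 CPM under saline and 264, 195, 200 and 229 CPM under PFSUV-IMQ. Saline replicate 4 and PFSUV-IMQ replicate 2, the highest of their groups for Abca1, were the lowest of their groups for Abcg1. The log2 fold change was 0.16 (standard error 0.24, interval -0.38 to 0.71, adjusted p = 0.860), and -0.029 without saline replicate 4. In the list of 12 genes of sterol export and LXR targets, none was called or passed an unadjusted p under 0.05 with edgeR. None was called with DESeq2, and 8 had fitted changes below 0, beside 54.0% of all tested genes, with a median of -0.12. Without saline replicate 4, 4 of the 12 were below 0 and the median was 0.25. The largest differences were in Abcg8 and Abcg5, the paired exporters of sterols into bile (log2 fold changes -0.75 and -0.53, standard errors 0.78 and 0.73), and in Mylip, a ubiquitin ligase gene that LXR induces (-0.45, standard error 0.43). Without saline replicate 4 the values of Abcg8 and Abcg5 turned to 0.36 and 0.47, and that of Mylip was -0.14.

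Among 9 genes of oxysterol metabolism, oxysterol sensing and cholesterol esterification, 8 were tested and Ch25h was the 1 called by edgeR. Cyp7a1, the rate-limiting enzyme of bile acid synthesis, had 8.89, 18.9, 55.7 and 2.12 CPM under saline and 1.05, 2.31, 1.84 and 2.70 CPM under PFSUV-IMQ. All 4 PFSUV-IMQ tumors were low, and of the saline tumors only replicate 5, which had the least hepatocyte marker RNA, was as low. Its log2 fold change of -3.44 (standard error 0.85, interval -5.35 to -1.53) missed the threshold at an adjusted p of 0.0759 with edgeR, passed it with DESeq2 (7.93e-05) and with the hepatocyte covariate (0.00150), and was -2.34 without saline replicate 4 (adjusted p = 0.144). Gpr183, the receptor on immune cells for an oxysterol made through Ch25h, had 3.96 ± 1.000 CPM under saline and 2.07 ± 0.898 CPM under PFSUV-IMQ. Its groups did not overlap by a narrow margin, 3.36 against 3.35 CPM, and its log2 fold change was -0.94 (standard error 0.35, adjusted p = 0.265). Cyp7b1, an oxysterol hydroxylase, and Soat1, which esterifies cholesterol, had log2 fold changes of 1.16 (standard error 1.07) and 0.36 (standard error 0.19). The value of Cyp7b1 was -0.11 without PFSUV-IMQ replicate 2 and 2.37 without saline replicate 4.

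**Figure D3:**
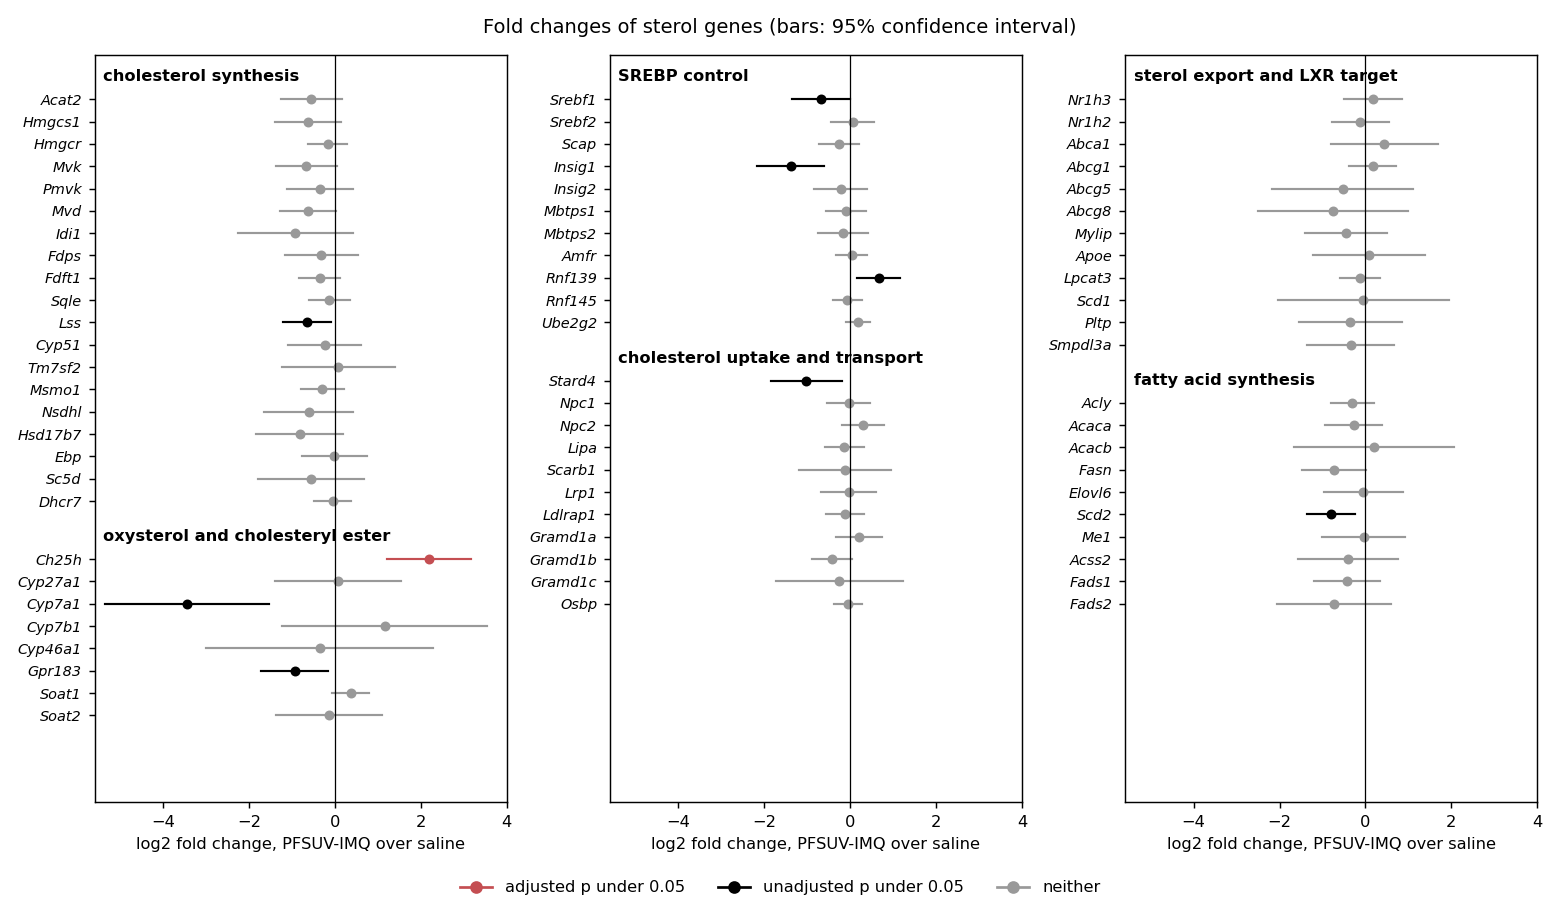
Log2 fold changes of PFSUV-IMQ over saline (horizontal axis) with 95% confidence intervals for the tested genes of 6 lists that are reported here, red where the adjusted p was under 0.05, black where only the unadjusted p was, and grey otherwise. Ch25h is the single red point, at 2.19, and all synthesis genes shown but Tm7sf2, at 0.07, lie to the left of 0.

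Fatty acid synthesis genes, which SREBP1 controls, were compared because SREBP1 and SREBP2 share Scap and the Insig proteins. None of the 10 was called by edgeR or DESeq2, and 1 was lower at an unadjusted p under 0.05 (4.65% of all tested genes). Fitted changes were below 0 in 9, beside 54.0% of all tested genes, and the median was -0.36. The desaturase gene Scd2 had 100.3 ± 23.9 CPM under saline and 57.5 ± 17.8 CPM under PFSUV-IMQ (log2 fold change -0.80, standard error 0.25, adjusted p = 0.173). Fads2, Fasn and Fads1 had -0.74, -0.73 and -0.43. Without saline replicate 4 these became 0.087, -0.39 and -0.064, and 4 of the 10 genes were below 0.

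Levels of different genes were compared per kilobase of exon (RPKM). In the saline tumors Hmgcs1 was highest at 33.7 ± 15.8 RPKM, followed by Insig1 at 30.7 ± 16.8, Abcg1 at 27.2 ± 7.97, Srebf2 at 16.2 ± 2.29, Sqle at 14.0 ± 3.59, Abca1 at 8.61 ± 4.22, Idi1 at 7.39 ± 4.73 and Ch25h, the lowest, at 6.16 ± 1.61 (SD, n = 4). In the PFSUV-IMQ tumors Abcg1 was highest at 30.4 ± 4.33 RPKM. Ch25h had a mean of 28.2 ± 20.4 RPKM, raised by 58.8 RPKM in replicate 2 and with 17.0 RPKM in its lowest tumor. Hmgcs1 was at 21.7 ± 6.73, Srebf2 at 16.8 ± 5.14, Sqle at 12.8 ± 1.64, Insig1 at 11.7 ± 2.04, Abca1 at 11.7 ± 10.1 and Idi1 at 3.91 ± 2.55 RPKM. In both groups each pair of neighbors in the order of means overlapped in the range of its 4 tumors.

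**Figure D4:**
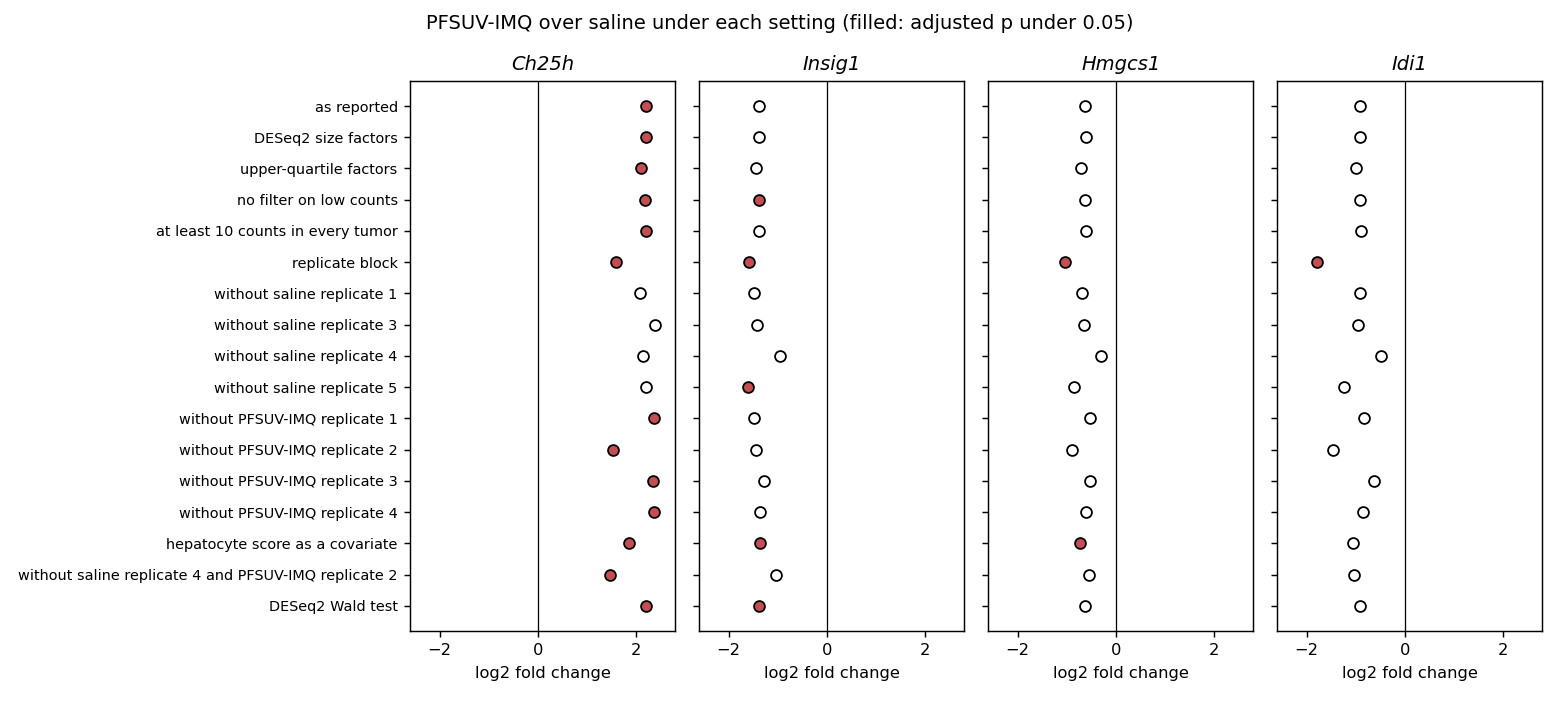
Log2 fold changes (horizontal axes) of Ch25h, Insig1, Hmgcs1 and Idi1 under each processing setting (rows), filled where the adjusted p was under 0.05. The direction is the same in every setting shown for these 4 genes, while the call of Ch25h is lost with any saline tumor left out and that of Insig1 is gained in 5 settings.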

How the data were processed

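The authors deposited a count table of whole reads per gene and tumor (8 tumors), which every test used. The other deposited table holds signal values, the same counts divided by the authors with DESeq2 by 1 size factor per tumor, and was used only for gene symbols. The paper's methods name TopHat and HTSeq, whereas the submitters' processing notes name HISAT2 2.1.0 and featureCounts 2.0.0. The build is not given in the sources used here, and all 55536 identifiers are in GENCODE M21 (GRCm38), from which positions and exon lengths were taken. Counts per tumor totalled 16883911 to 27687756, at which 3 counts are 0.108 to 0.178 CPM, a floor that reflects counting error only. Tumors of a group correlated at 0.912 to 0.984 across genes (log2 CPM). The library kit is not stated to keep strand.

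Counts were tested in R 4.3.3 with edgeR 4.0.16 (TMM, default filter on low counts, quasi-likelihood test) over 15998 genes, called at an adjusted p under 0.05, the threshold the study names. In all, 394 genes were called higher and 35 lower. Standard errors and 95% intervals were derived from the test statistic and include the spread between tumors. log2 CPM used a prior count of 2. Alternatives were DESeq2 1.42.0 (size factors or Wald test), upper-quartile factors, no filter, at least 10 counts in every tumor, a log2 fold change beyond 1, a replicate block, each tumor left out, and 2 chosen after seeing the data (a hepatocyte score, and leaving out both tumors rich in hepatocyte markers). The procedure was tested on simulated data.

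The 8 genes and the lists were chosen with earlier results of these data known. Some genes of the lists count in the list totals but are not reported here by name. Named genes are otherwise the 8, the called genes of each list and its 4 largest other changes, and the 5 genes most like Ch25h or the mean of Hmgcs1, Sqle and Idi1. Labels name separate tumors, but not whether mice shared a cage or day.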

Additional observations from a re-analysis of the deposited data

Results flagged for a closer look

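Of 58 combinations of a named gene and a group of 4 tumors, 8 had a tumor that stood apart in CPM by Dixon's criterion. Chance meets it in about 1 of 20 groups of independent, normally distributed values. The combinations share the same tumors, so the flagged ones are not separate observations. In 7 of them the tumor was PFSUV-IMQ replicate 2, which was the highest of its group at 81.6 CPM for Ch25h, 277 CPM for Abca1, 31.6 CPM for Stard4, 15.9 CPM for Abcg8, 16.9 CPM for Mylip, 243 CPM for Cyp7b1 and 174 CPM for Fads2. In the other, saline replicate 4 was the highest saline tumor for Gpr183, at 5.46 CPM. These are the tumors with the most hepatocyte marker RNA of their groups, and the part of that RNA in these values was not tested gene by gene.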

How the results depend on the processing

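Ch25h was higher in every setting tried and called in the 8 alternatives that kept the 8 tumors or left out both hepatocyte-rich ones, at log2 fold changes from 1.46 to 2.21. With 1 tumor left out it ranged from 1.53 to 2.38 and was called in 4 of 8 fits. Insig1 became called at -1.39 with DESeq2 and without a filter on low counts and at -1.36 with the hepatocyte score, and ranged from -1.61 to -0.96 with 1 tumor left out. The score also gave 755 genes called higher and 456 lower, with 1 synthesis gene lower, Hmgcs1 at -0.73. DESeq2 called 729 higher and 176 lower, and no filter gave 64 lower. Srebf2 was -0.011 with upper-quartile factors, and Abca1 was -0.08 without saline replicate 4 and PFSUV-IMQ replicate 2. With 1 tumor left out, 198 to 398 genes were called higher and 8 to 41 lower, Srebf2 ranged from -0.17 to 0.16, Abca1 from -0.39 to 0.75, Abcg1 from -0.029 to 0.28, and the median of the export list from -0.75 to 0.25. The causes of these shifts were not tested.

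Replicate numbers 1, 3 and 4 occur in both groups. Deviations of same-numbered tumors correlated at 0.29, -0.27 and -0.32, and 0 of the 6 tumors correlated best with its own number. The labels do not say that the numbers pair animals. With 3 shared numbers these correlations cannot settle it. A replicate block, which in effect rests on those 6 tumors, called 302 genes lower. The 3 synthesis genes among them were Hmgcs1 at -1.05, Idi1 at -1.80 and Hsd17b7 at -1.38. Insig1 was at -1.58, Abca1 at -0.60 and the export list median at -0.83. Sqle kept its direction and was not called in any setting. With edgeR, the block also called Insig1 (adjusted p = 0.0324), Stard4 (-1.52, 0.0117), Scd2 (0.0330) and Cyp7a1 (0.00293). Stard4 was called with the hepatocyte score as well (-1.12, adjusted p = 0.00460). Cyp7a1 was called without a filter on low counts (adjusted p = 0.00483) and without saline replicate 5 (0.0193).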
